A study of Mus musculus with 9 samples.

Results

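The calcium/calmodulin-dependent protein kinases (CaM kinases) were examined on all 9 hippocampal arrays of mice with different amounts of IF1, the inhibitor protein of the mitochondrial ATP synthase. The family was taken as every non-control probe that the array annotation names Camk1, Camk1d, Camk1g, Camk2a, Camk2b, Camk2d, Camk2g, Camk4, Camkk1 or Camkk2. These 10 genes had 19 of the 39429 probes on the array. Of the 19, 18 were well above background on all 9 arrays and entered the fit with 27991 kept probes in all. The exception was the Camk2d probe A_55_P1955172, which no array showed well above background and which is not compared.

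The genotypes, named as in the sample labels, were KO (IF1 knockout in neurons), CRL (control) and TG (human IF1 overexpressed in neurons). RNA came from the hippocampus of male C57BL/6J mice aged 9 months, 3 per genotype, with 1 mouse per one-colour array. KO mice carried a floxed Atpif1 gene, derived from a C57BL/6NTac line, from which exon 3 was deleted by Cre recombinase driven by the Camk2a promoter. TG mice carried a human IF1 transgene under a tetracycline-regulated element together with a tetracycline transactivator (tTA), again driven by the Camk2a promoter, and both lines of this cross are named with B6 and CBA backgrounds. CRL mice had neither change of IF1, and whether the arrayed CRL mice carried Cre, tTA or no transgene is not given in the sources used here. The Camk2a promoter acts mostly in excitatory forebrain neurons, so other hippocampal cells keep their own IF1 in KO mice. Camk2a, the gene that lends its promoter to both models, is itself a member of the family.

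Calcium entering a neuron binds calmodulin, and calcium-loaded calmodulin switches on the CaM kinases. The CaM kinase II subunits (alpha, beta, gamma and delta, encoded by Camk2a, Camk2b, Camk2g and Camk2d) assemble into large mixed holoenzymes, which are abundant at hippocampal excitatory synapses and known for their role in synaptic plasticity. The CaM kinase kinases (Camkk1 and Camkk2) phosphorylate the CaM kinase I enzymes (Camk1, Camk1d, Camk1g) and the largely nuclear CaM kinase IV (Camk4), a cascade known for its links to the transcription factor CREB.

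The results below turn on probes that read separate stretches of the same gene, so 3 of them are shown: the Camk2b probe that passed the thresholds, a probe of its holoenzyme partner Camk2d, and the Camk1d probe that differed from the other probe of that gene. Sequences are those of the deposited array files and run 5′ to 3′. Capitals mark the longest run shared with a probe of another CaM kinase gene, which was 8 bases for Camk2b (with Camk4) and 7 bases for Camk2d (with Camk2g) and Camk1d (with Camk1), out of 60 bases.
Camk2b A_55_P2150578: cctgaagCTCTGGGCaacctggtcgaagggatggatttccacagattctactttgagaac
Camk2d A_55_P1978830: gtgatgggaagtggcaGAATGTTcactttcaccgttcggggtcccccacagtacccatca
Camk1d A_52_P131353: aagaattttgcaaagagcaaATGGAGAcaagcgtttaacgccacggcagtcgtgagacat
In mm9, the deposited annotation places the Camk2b probe at chr11:5872636-5872695 on the minus strand and the Camk2d probe at chr3:126543223-126543282 on the plus strand, and gives no position for the Camk1d probe. The other Camk2b probe, A_55_P2109377, lies at chr11:5869675-5869734, 2961 bases away and nearer the 3′ end of this minus-strand gene.

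Each signal is a log2 intensity from which the 75th percentile of its array was subtracted. A probe was called different when it changed at least 1.5-fold with an unadjusted limma P value below 0.05, the thresholds named in the study's methods, and Benjamini-Hochberg values over all 27991 probes are given beside. Probes well above background made up 66.7% to 69.7% of a TG array, 71.2% to 73.0% of a KO array and 72.4% to 74.9% of a CRL array, and replicates of a genotype correlated at 0.983 to 0.992. The array labelled KO replicate 1 read 6.43 for the single Atpif1 probe, above the 6.19 to 6.34 of the CRL arrays, whereas the other KO arrays read 5.20 and 5.53, so results that involve KO mice are also given without that array where it matters.

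Between TG and CRL mice, 1 of the 18 CaM kinase probes was called, a Camk2b probe that was higher in TG mice, where 4.47% of all probes were called. The share in the family is therefore near the background. Between TG and KO mice none was called (3.77% of all probes were), with 1 probe at an unadjusted limma P value below 0.05. Between KO and CRL mice none was called (1.06% of all probes were), with 0 below 0.05 unadjusted. No CaM kinase probe passed adjustment in any comparison, and the smallest adjusted P values in limma were 0.413, 0.686 and 1.00 in the same order. Over all probes, the adjustment left 1, 3 and 0 probes.

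In TG mice, 14 of 18 probes were higher than in KO mice, with a median log2 difference of 0.22, against a median of 0.0070 and 51.3% higher over all probes. Against CRL mice 14 of 18 were again higher, with a median of 0.15, against 0.00067 and 50.1%. By the brightest probe of each gene, 7 of 10 were higher than in KO mice (median 0.17) and 6 of 10 higher than in CRL mice (median 0.03), while the 8 further probes were all higher than in CRL mice (median 0.29). Both comparisons share the TG arrays, and probes of 1 gene share its transcripts. Between KO and CRL mice, 10 probes were higher and 8 lower, with a median of 0.03 against -0.0075. With normexp the family medians of TG mice were 0.13 against KO and 0.09 against CRL mice, and with slide as a fixed term 0.16 and 0.27. Without TG replicate 1 the median against KO mice was 0.15, and without CRL replicate 3 the median between KO and CRL mice was -0.12. The median between KO and CRL mice was 0.08 without the array labelled KO replicate 1 and -0.035 without KO replicate 2. Of the 18 probes, 9 belong to the 6998 brightest kept probes, of which 59.8% were higher in TG than in KO mice and 56.9% higher in TG than in CRL mice. Arrays of both genotypes did not overlap for 3 family probes between TG and KO mice (Camk2g and Camkk1 higher, Camk1d lower; 13.7% of all probes did not overlap), for 2 between TG and CRL mice (Camk2b and Camk2d higher; 12.3%) and for 0 between KO and CRL mice (8.05%).

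**Figure D1:**
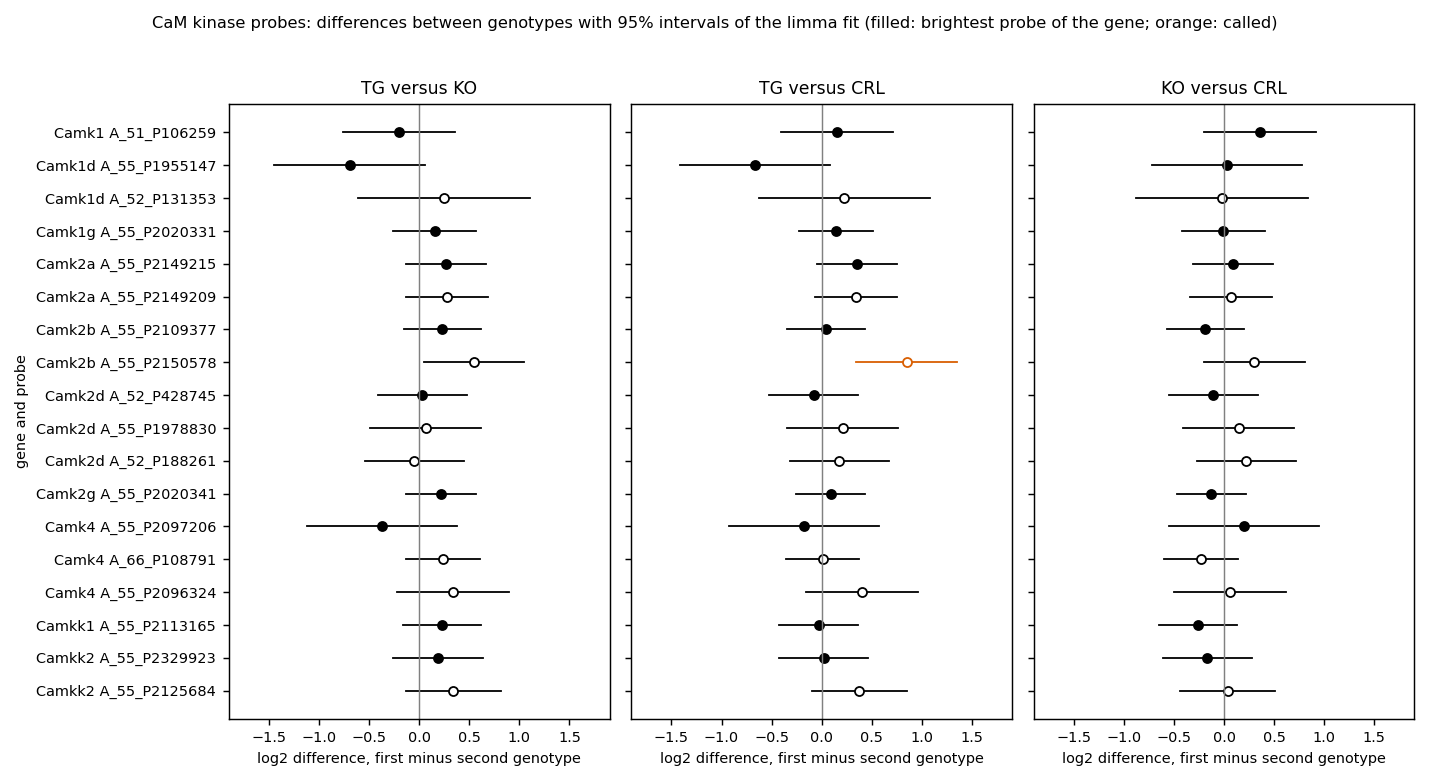
Log2 differences (x axis, first minus second genotype) of the 18 CaM kinase probes (y axis) in the 3 comparisons, with 95% intervals from limma; filled points are the brightest probe of each gene, open points its further probes. One interval is drawn in orange, that of the called Camk2b probe A_55_P2150578 between TG and CRL mice (0.85), and the interval of the same probe between TG and KO mice (0.55) also lies above 0.

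Camk2b encodes the beta subunit of CaM kinase II, which binds actin and anchors the holoenzyme in spines. The study also measured Camk2b by qPCR. On the called probe, A_55_P2150578, the TG arrays read 1.15, 0.77 and 1.33. The CRL arrays read 0.26, 0.11 and 0.35. The KO arrays read 0.79, 0.08 and 0.75. All TG arrays thus lay above all CRL arrays, while the array labelled KO replicate 1 lay just above the lowest TG array, KO replicate 3 just below it and KO replicate 2 below every CRL array. The probe was 1.80-fold higher in TG than in CRL mice (log2 difference 0.85, SE 0.22, 95% interval 0.35 to 1.35, limma unadjusted P = 0.00435, adjusted P = 0.413). The difference between TG and KO mice was 0.55 (SE 0.22, limma unadjusted P = 0.0367, 1.46-fold), short of the fold required. Leaving out the array labelled KO replicate 1 gave 0.67 (limma unadjusted P = 0.0254), a called value. The probe was also called without KO replicate 3 (0.65) and without TG replicate 2 (0.70), and was smallest without KO replicate 2 (0.31). KO and CRL mice differed by 0.30 (SE 0.22, limma unadjusted P = 0.205), by 0.18 without the array labelled KO replicate 1 and by 0.53 without KO replicate 2. On slide 2, the only slide with arrays of all 3 genotypes, TG replicate 3 lay 1.14 above the mean of the CRL arrays.

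The brighter Camk2b probe gave another picture. A_55_P2109377 read 5.39, 5.21 and 5.50 on the TG arrays. It read 5.47, 5.40 and 5.11 on the CRL arrays. It read 5.35, 4.84 and 5.23 on the KO arrays. The genotypes overlapped in every comparison. The TG minus CRL difference was 0.04 (95% interval -0.34 to 0.43, limma unadjusted P = 0.810), and it changed sign with quantile normalization (-0.05). TG minus KO was 0.23 (interval -0.16 to 0.62) and KO minus CRL was -0.19 (interval -0.58 to 0.20). Without the array labelled KO replicate 1 they were 0.33 and -0.29, and without KO replicate 2 they were 0.081 and -0.039. KO minus CRL was -0.30 without CRL replicate 3.

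Camk2a encodes the alpha subunit, the main form in excitatory forebrain neurons. Its brightest probe, A_55_P2149215, read 2.77, 2.87 and 3.35 on the TG arrays. It read 2.54, 2.87 and 2.50 on the CRL arrays. It read 2.79, 2.73 and 2.66 on the KO arrays. TG replicate 3 was the highest array, and CRL replicate 2 reached the level of TG replicate 2. The TG minus CRL difference was 0.36 (SE 0.18, interval -0.05 to 0.76, limma unadjusted P = 0.0755), TG minus KO 0.27 (SE 0.18) and KO minus CRL 0.09 (SE 0.18), and none was called. With slide as a fixed term, TG minus CRL became 0.66 (limma unadjusted P = 0.00997), a called value. TG replicates 1 and 2 are alone on slide 1, so with slide as a term every TG comparison rests on the single array TG replicate 3, here the highest array. The same term gave 0.52 for TG minus KO, below 1.5-fold. Without TG replicate 3 the differences were 0.18 against CRL and 0.088 against KO mice. KO minus CRL ran from 0.021 without CRL replicate 3 to 0.21 without CRL replicate 2. The further Camk2a probe, A_55_P2149209, 3281 bases away, gave nearly the same differences, 0.35 against CRL and 0.28 against KO mice, and was also called against CRL mice with slide as a fixed term.

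The remaining CaM kinase II subunits were not called. Camk2g (gamma, A_55_P2020341, chr14:21554122-21554181) read 4.69 to 4.79 on the TG arrays, 4.33 to 4.66 on the KO arrays and 4.43 to 4.92 on the CRL arrays. TG arrays lay above all KO arrays by a mean of 0.22 (SE 0.15, limma unadjusted P = 0.192), with overlap against CRL mice (0.09). Camk2d (delta) differed between TG and CRL mice by -0.08 on its brightest probe A_52_P428745, by 0.21 on A_55_P1978830 and by 0.17 on A_52_P188261. On A_55_P1978830 the TG arrays ran from -0.82 to -0.68 and the CRL arrays from -1.23 to -0.85, without overlap but with a limma unadjusted P of 0.416, and the KO arrays ran from -1.19 to -0.24. All 3 Camk2d probes were highest on KO replicate 2 among the KO arrays.

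The balance of Camk2a to Camk2b signal was taken within each array as the log2 signal of the brightest Camk2a probe minus that of the brightest Camk2b probe. Both are RNA signals of probes with different sequences, so the level is not a ratio of the subunits, and only differences between arrays are compared. The balance was -2.62, -2.34 and -2.16 on the TG arrays. It was -2.92, -2.53 and -2.61 on the CRL arrays and -2.55, -2.10 and -2.57 on the KO arrays, so that all genotypes overlapped. The means differed by 0.31 between TG and CRL mice (exact two-sided permutation p = 0.3), by 0.28 between KO and CRL mice (exact p = 0.3) and by 0.03 between TG and KO mice (exact p = 1), where 3 arrays against 3 allow no p below 0.1. With the mean of all kept probes of each gene in place of the brightest, the balance turned to -0.09 between TG and CRL mice and to -0.12 between TG and KO mice. Without CRL replicate 1 the difference between TG and CRL mice was 0.20 and that between KO and CRL mice 0.16, and without KO replicate 2 the latter was 0.13. The difference between TG and KO mice also turned sign without the array labelled KO replicate 1, without KO replicate 3 and without TG replicate 3.

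**Figure D2:**
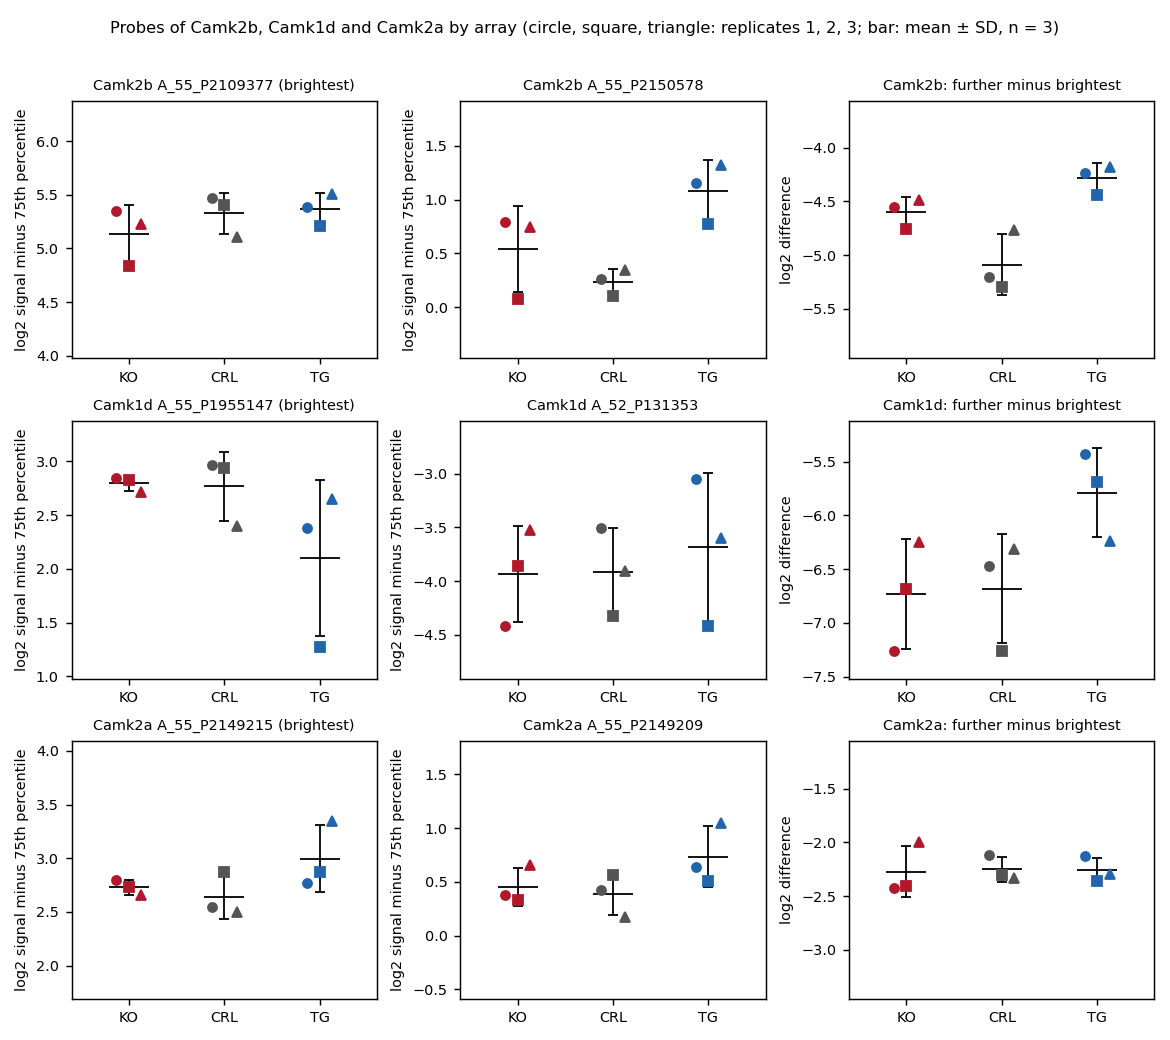
Signals by array and genotype for both probes of Camk2b, Camk1d and Camk2a (y axes, log2 signal minus the array's 75th percentile, each panel spanning the same 2.4 log2 units) and, in the right column, the further minus the brightest probe within each array; symbols are single arrays, bars the mean ± SD (n = 3). The Camk2b difference lies higher in every TG array than in any other array, the Camk1d difference is highest on TG replicates 1 and 2, and the Camk2a difference overlaps between all genotypes.

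Among the CaM kinase I enzymes, Camk1d had the most negative difference of the family between TG mice and both other genotypes, without being called, and it too was measured by qPCR in the study. Its brightest probe, A_55_P1955147 (chr2:5214566-5214625), read 2.38, 1.27 and 2.65 on the TG arrays. It read 2.96, 2.94 and 2.40 on the CRL arrays. It read 2.85, 2.83 and 2.72 on the KO arrays. The KO arrays were tightly grouped and above every TG array, while CRL replicate 3 fell among the TG arrays. TG minus KO was -0.70 (SE 0.33, interval -1.45 to 0.06, 1.62-fold, limma unadjusted P = 0.0659, adjusted P = 0.713), and TG minus CRL was -0.67 (SE 0.33, 1.59-fold, limma unadjusted P = 0.0759, adjusted P = 0.625). KO and CRL mice differed by 0.03. Without TG replicate 2 the differences were -0.28 and -0.25. Without TG replicate 3 they were -0.97 and -0.94, and both were called. Both were also called with normexp background correction and quantile normalization (-0.82 and -0.72). On slide 2, the difference of TG replicate 3 was -0.20 from the KO array and -0.30 from the mean of the CRL arrays.

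The array with the lowest Camk1d signal, TG replicate 2, was also the array on which the thalamic marker genes Tnnt1 and Prkcd read highest. Tnnt1 read 2.14 there and -1.04 to -0.35 on the other 8 arrays, and Prkcd 0.94 against at most 0.33. The remaining thalamic marker, Tcf7l2, was not highest there (-3.46, against -3.02 on TG replicate 3). CRL replicate 3, the CRL array with the lowest Camk1d signal, had the highest mean striatal signal (Adora2a -1.87, against -4.26 to -3.35 on the others). Of the striatal markers, Ppp1r1b instead read highest on TG replicate 1 (3.20). The part of other brain regions in the Camk1d values was not tested. In these whole-hippocampus samples, fewer cells of a type and less RNA per cell cannot be told apart.

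The further Camk1d probe, A_52_P131353, was dim and scattered. It read -3.05, -4.42 and -3.60 on the TG arrays, -3.51, -4.32 and -3.91 on the CRL arrays and -4.42, -3.86 and -3.52 on the KO arrays. The genotypes overlapped throughout, with differences of 0.25 against KO and 0.23 against CRL mice (SE 0.38 each), opposite in sign to the brightest probe. Camk1 (A_51_P106259, printed as 10 spots, chr6:113286369-113286428) differed by 0.16 between TG and CRL mice and by -0.20 between TG and KO mice. Its difference of 0.35 between KO and CRL mice (SE 0.25, limma unadjusted P = 0.184) was the largest of the family in that comparison and came with KO replicate 2 at -0.59, while replicates 1 and 3 read -1.43 and -1.34. Camk1g (A_55_P2020331), whose spot on KO replicate 1 was an outlier and was left out, read 3.29 to 3.70 on the TG arrays, 3.15 to 3.56 on the CRL arrays and 3.30 and 3.38 on the 2 KO arrays left.

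Camk4, the nuclear kinase of the cascade, had 3 probes and no call. The brightest, A_55_P2097206, read 0.90, 1.56 and 2.08 on the TG arrays. It read 2.06, 1.18 and 1.81 on the CRL arrays and 1.61, 2.17 and 1.89 on the KO arrays. The TG minus KO difference was -0.38 (SE 0.33) and TG minus CRL was -0.17. The lowest TG and CRL arrays, TG replicate 1 and CRL replicate 2, were the arrays of their genotype with the highest signal of the choroid plexus gene Ttr (7.27 and 6.74). KO replicate 3, with Ttr at 6.44, had Camk4 at 1.89. The part of choroid plexus in the Camk4 values was not tested. The further Camk4 probes were higher in TG than in KO mice, A_66_P108791 by 0.24 (SE 0.16) and A_55_P2096324 by 0.34 (SE 0.24), neither called.

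The upstream kinases differed little. Camkk1 (A_55_P2113165) read 3.78 to 3.89 on the TG arrays, above the 3.41 to 3.74 of the KO arrays (difference 0.23, SE 0.17, limma unadjusted P = 0.214) and inside the 3.52 to 4.13 of the CRL arrays (difference -0.03). Camkk2, which also phosphorylates AMP-activated protein kinase, differed by 0.19 and 0.02 on its brightest probe, A_55_P2329923, against KO and CRL mice. On its further probe A_55_P2125684 it differed by 0.34 and 0.37 (SE 0.21 each, limma unadjusted P = 0.137 and 0.107). TG replicate 1 read highest on both Camkk2 probes.

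**Figure D3:**
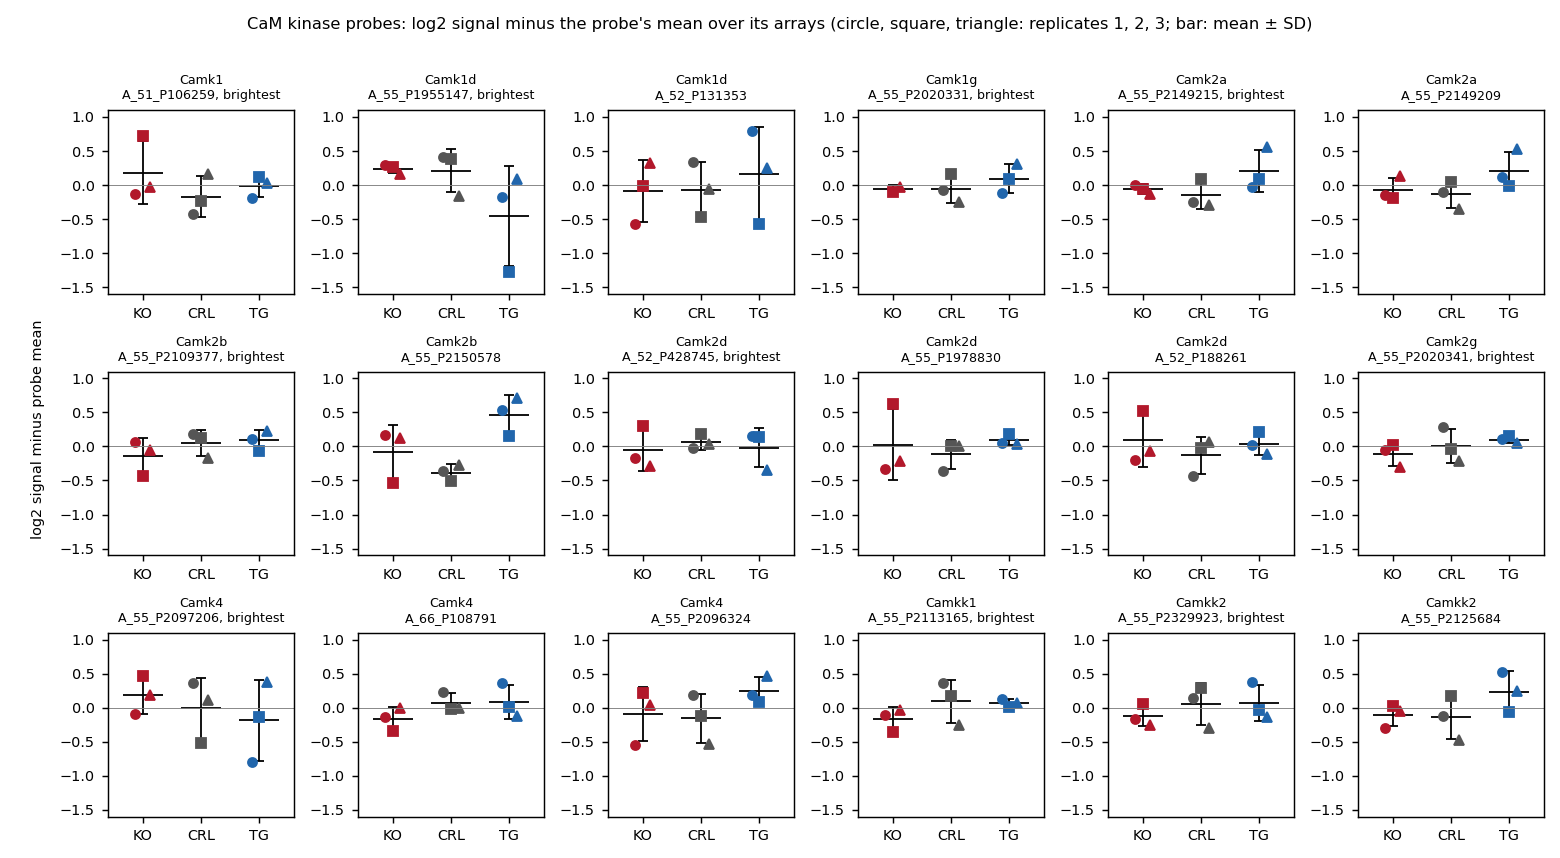
All 18 CaM kinase probes by array: log2 signal minus the probe's own mean over its arrays (y axis, the same range in every panel) against genotype (x axis); symbols are single arrays and bars the mean ± SD (n = 3, except n = 2 for Camk1g in KO mice). On 7 of the 18 probes every array lies within 0.5 log2 units of the probe's mean, and the Camk1d brightest probe on TG replicate 2 is the lowest point.

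Whether probes of a gene moved together was tested as the difference between each further probe and the brightest probe of its gene within an array, from which any constant subtracted from an array drops out. For 6086 such pairs on the array, 8 of them in the family, the same limma thresholds were used. Between TG and CRL mice, 2 of the 8 CaM kinase pairs changed unequally (7.23% of all pairs did), those of Camk2b and Camk1d. The further Camk2b probe minus the brightest was -4.24, -4.44 and -4.18 on the TG arrays and -5.21, -5.30 and -4.77 on the CRL arrays, which do not overlap. The unequal change was 0.81 (SE 0.19, limma unadjusted P = 0.00179, adjusted P = 0.250). The KO arrays read -4.55, -4.76 and -4.48, between both groups, and differed from CRL mice by 0.49 (limma unadjusted P = 0.0263), which is below 1.5-fold, and from TG mice by 0.31 (limma unadjusted P = 0.124). For Camk1d the unequal change was 0.89 (SE 0.34, limma unadjusted P = 0.0278, adjusted P = 0.416). It was no longer called without TG replicate 1, without TG replicate 2, without CRL replicate 2 or with slide as a fixed term (0.66). That term, with TG replicate 3 as the single TG array, left the Camk2b pair called and added those of Camk2d with A_55_P1978830 (0.66) and of Camkk2 (0.60).

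Between TG and KO mice, 2 of 8 pairs changed unequally (6.00% of all pairs did), those of Camk1d (0.94, SE 0.34, limma unadjusted P = 0.0217, adjusted P = 0.550) and of Camk4 with A_55_P2096324 (0.72, SE 0.31, limma unadjusted P = 0.0433, adjusted P = 0.567). Without the array labelled KO replicate 1 neither was called, nor without TG replicate 1. The Camk1d pair was also not called without TG replicate 2, and the Camk4 pair without KO replicate 2, KO replicate 3 or CRL replicate 1 and with no filter, slide as a random block or the replicate number as a block. The Camk4 pair was 0.20 with slide as a fixed term. Between KO and CRL mice none of the 8 was called (1.84% of all pairs were), with the Camk2b and no other pair below an unadjusted limma P of 0.05. The difference of further minus brightest probe had a positive value for TG mice in 7 of 8 pairs in both comparisons, 2 of them called in each, with medians of 0.32 against CRL and 0.23 against KO mice. Over all pairs it was positive in 48.3% and 46.5%, with medians of -0.01 and -0.03. The exceptions were Camk2a against CRL (-0.01) and Camk2d with A_52_P188261 against KO mice (-0.08).

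The probes differ in composition. The brightest Camk2b probe holds 38.3% G and C, and the called Camk2b probe belongs to the 6125 kept probes of highest G and C content (46.7% and above). Those 6125 probes had a median TG minus CRL difference of 0.03, and the 7054 probes with 38.3% to 43.3%, which include the brightest Camk2b probe, a median of 0.0029. The polyadenylation hexamers AATAAA or ATTAAA, searched on the probe strand, occur in 3 of the 18 probes (Camk1g and the brightest of Camk2a and Camk4), a share close to the 17.9% of all kept probes.

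The CaM kinases work with calmodulin, its buffers, inhibitors and targets, and 50 further genes of this pathway were listed and all measured, each by its brightest probe. Between TG and CRL mice, 27 were higher and 23 lower, with a median of 0.04 against -0.00064 over all genes, and 2 were called (4.31% of all genes were). Camkv, a CaM kinase-like pseudokinase of synapses, was higher. It read 6.67, 6.54 and 7.02 on the TG arrays, 5.90, 5.88 and 6.27 on the CRL arrays and 6.27, 6.50 and 6.40 on the KO arrays. All TG arrays exceeded all other arrays, with a difference from CRL of 0.73 (SE 0.17, 1.66-fold, limma unadjusted P = 0.00206, adjusted P = 0.376). Camkv was not called with normexp. Hdac4, a histone deacetylase that CaM kinases phosphorylate and keep out of the nucleus, was lower. It read 0.15, 0.40 and -0.85 on the TG arrays, 0.34, 0.75 and 0.78 on the CRL arrays and 0.84, 0.94 and 0.77 on the KO arrays. The low TG replicate 3 stood apart, and TG and CRL arrays overlapped (difference -0.73, SE 0.30, limma unadjusted P = 0.0375, adjusted P = 0.567). Hdac4 was not called without TG replicate 3 (-0.35), without CRL replicate 2 or 3, without any 1 of the KO arrays, or in a fit of TG and CRL arrays alone.

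Between TG and KO mice, 33 of the 50 were higher and 17 lower (median 0.05 against 0.0066), and Hdac4 alone was called (-0.95, SE 0.30, limma unadjusted P = 0.0112, adjusted P = 0.660), where 3.68% of all genes were. Without TG replicate 3 it was -0.58 (limma unadjusted P = 0.0108), just short of 1.5-fold and not called. Between KO and CRL mice, 22 were higher and 28 lower (median -0.01), and none was called, against 1.02% of all genes. By other probes of the gene, Dclk1 between TG and KO mice (0.70), Grin2b between TG and CRL mice (1.06) and Creb1 between KO and CRL mice (0.61) also passed the thresholds. The brightest probes of these genes gave 0.23 for Dclk1, 0.21 for Grin2b and, with the opposite sign, -0.12 for Creb1. Grin2b was 0.68 without TG replicate 3 and still called. Dclk1 was not called without KO replicate 2, without TG replicate 3, with normexp or with slide as a fixed term. Creb1 was not called without the array labelled KO replicate 1 (0.47), without CRL replicate 2 (0.40), with normexp (0.24) or with slide as a fixed term.

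By group, none of 7 genes for calmodulin and its buffers was called in any comparison. Calm3 differed by 0.37 and neurogranin (Nrgn), which holds calmodulin at rest, by -0.01 between TG and CRL mice. None of 10 inhibitors and phosphatases was called, with the CaM kinase II inhibitors Camk2n1 at 0.08 and Camk2n2 at -0.12. The calcineurin subunit Ppp3cb differed by 0.45 (SE 0.14, limma unadjusted P = 0.0105), below 1.5-fold. Between TG and CRL mice, 1 of 9 related kinases (Camkv) and 1 of 24 targets and anchors (Hdac4) were called, where 4.31% of all genes were. Between TG and KO mice, 0 of the 9 and 1 of the 24 (Hdac4) were called, where 3.68% of all genes were. Among targets, the CREB-binding protein gene Crebbp differed by 0.38 (limma unadjusted P = 0.0295), Hdac5 by 0.40 (limma unadjusted P = 0.0343) and the neuronal nitric oxide synthase gene Nos1 by 0.42 (limma unadjusted P = 0.0446) between TG and CRL mice, all below 1.5-fold. Nos1 was called without CRL replicate 1. Between TG and KO mice, Crebbp differed by 0.39 (limma unadjusted P = 0.0257) and Tiam1, an activator of the GTPase Rac1, by 0.46 (limma unadjusted P = 0.0130), also below 1.5-fold.

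The labelled tissue was checked by markers, each by its brightest probe. All 5 excitatory neuron markers and all 5 hippocampal subfield markers were kept, and none was called in any comparison. Of the subfield markers, 1 of 5 was higher in TG than in CRL mice (median -0.30) and 1 of 5 in KO than in CRL mice (median -0.34). In TG mice, 3 of 5 were higher than in KO mice (median 0.05). The mean level of the excitatory markers ran from 1.46 to 2.02 in TG, from 1.67 to 1.77 in CRL and from 1.499 to 1.855 in KO arrays. Interneuron, oligodendrocyte, astrocyte and microglia markers had no call either. Of the interneuron markers, 1 of 5 was higher in TG than in CRL mice (median -0.25) and 1 of 5 than in KO mice (median -0.07). The mean of the choroid plexus markers ranged more widely, from -1.89 to 3.24 in TG, from -1.99 to 2.23 in CRL and from -2.55 to 1.97 in KO arrays. All 4 choroid plexus markers were higher in TG than in KO mice (median 0.91) and than in CRL mice (0.41), and none was called. All 3 thalamic markers were higher in TG than in KO mice (median 0.73), and 2 of 3 than in CRL mice (0.30), again without a call. The mean of the thalamic markers ran from -1.64 to -0.12 in TG, from -1.67 to -1.41 in CRL and from -1.87 to -1.56 in KO arrays. The highest mean was that of TG replicate 2. All 6 striatal markers were lower in TG than in CRL mice (median -0.38) and in KO than in CRL mice (-0.42), and of these 1 (Adora2a) was called lower in both. All 3 endothelium and blood markers were lower in TG than in KO mice (median -0.32) and than in CRL mice (-0.24), with no call. The part of these differences in the CaM kinase values was not tested.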

How the data were processed

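Hippocampal RNA of 9 mice was hybridized to Agilent mouse arrays on 3 slides. The authors deposited spot intensities from Agilent Feature Extraction 10.7.3.1, after background subtraction and spatial detrending of each array but with no normalization between arrays; probe positions are on mm9. Genotypes come from the sample labels. Here, the 75th percentile of each array was subtracted from the log2 intensity, control and outlier spots were left out, spots of a probe were averaged, and a probe was kept where every array of 1 or more genotypes showed it well above background. No spot was saturated, and the number of arrays limits the precision. All 9 arrays entered 1 limma fit (limma 3.58.1, R 4.3.3) by genotype with eBayes, which was also tested on simulated data. P values measure the spread between these mice. The CaM kinase genes, the pathway and marker lists and the rules were chosen with earlier results of these data known. Every probe of a member is reported, with values by array for Camk1d and Camk2b (measured by qPCR in the study), Camk2a and called probes; a gene is given by its kept probe of highest mean signal unless another is named. Genes of the pathway list other than those called, and single marker genes, were named after their values were seen. The alternatives were normexp (offset 50) with quantile normalization, quantile normalization alone, no filter or a stricter filter on dim probes, blocks for slide (fixed or random) or for the replicate number, fits without the genotype not compared, trend and robust options of eBayes, other thresholds and probe choices, and each array left out in turn. The value of 1 gene of the pathway list is not reported here.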

Additional observations from a re-analysis of the deposited data

How the results depend on the processing

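The Camk2b probe A_55_P2150578 was called between TG and CRL mice under every alternative run, with each array left out (0.73 to 1.00) and with normexp (0.94), and no alternative gave a CaM kinase probe an adjusted limma P value below 0.05. The count of CaM kinase probes called moved between TG and KO mice from 0 to 1 with normexp (Camk1d, -0.82) and to 1 by unadjusted P alone, and with arrays left out it ran from 0 to 1 (Camk2b without KO replicate 1 or 3 or TG replicate 2; Camk1d without TG replicate 3). Between TG and CRL mice it moved from 1 to 2 with normexp (Camk1d, -0.72) and to 3 with slide as a fixed block (both Camk2a probes, 0.66 on the brightest), and with arrays left out from 1 to 2 (Camk1d without TG replicate 3). Between KO and CRL mice it stayed at 0 in all. Over all probes, calls between TG and CRL mice fell from 1250 to 568 with normexp and rose to 1560 without TG replicate 3. Between TG and KO mice they fell from 1056 to 562 with normexp and rose to 1611 without TG replicate 3. Pathway genes called between TG and CRL mice numbered 1 with normexp (Hdac4), 5 with slide as a fixed block (Camkv, Hdac4, Actn2, Prkaa1 and Rasgrf1), 1 in a fit of the genotypes compared (Camkv) and 1 to 3 with arrays left out. Between TG and KO mice they numbered 4 with slide as a fixed block (Hdac4, Actn2, Camkv and Prkaa1), 2 by any probe and 0 to 2 with arrays left out, and between KO and CRL mice 1 by any probe and 0 to 1 with arrays left out (Ppp1cc without CRL replicate 3). Unequal probe pairs between TG and KO mice fell from 2 to 1 (Camk1d) with no filter, with slide as a fixed or random block, and ran from 0 to 3 with arrays left out. Between TG and CRL mice they rose from 2 to 3 with slide as a fixed block (Camk2b, Camk2d and Camkk2) and ran from 1 to 2 with arrays left out, and between KO and CRL mice they were 1 (Camk2b) with normexp and 0 to 1 with arrays left out (Camk2b without CRL replicate 3). With slide as a fixed block, TG replicate 3 is the only TG array that informs the comparisons, against the KO and CRL arrays of slides 2 and 3. Calls over all probes also rose with that block in both TG comparisons, so the higher counts above are not particular to the listed genes.

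The brighter Camk2b probe between TG and CRL mice turned to -0.049 with quantile normalization and ran from -0.066 to 0.12 with arrays left out. Camk1d between KO and CRL mice ran from -0.15 to 0.13. The balance of Camk2a to Camk2b between TG and KO mice turned to -0.031 with normexp and -0.12 with the mean of all probes and ran from -0.075 to 0.19 with arrays left out; between TG and CRL mice it turned to -0.094 with the mean of all probes. The causes of these moves were not tested.

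Same-numbered replicates deviated together little (correlations -0.17 to 0.12 over 9 pairs, against -0.25 to 0.34 over 18 pairs with other numbers), so the numbers were not taken to pair the mice. With the replicate number as a block, the CaM kinase calls stayed at 0, 1 and 0, and unequal probe pairs between TG and KO mice went from 2 to 1 (Camk1d).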

Other observations

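Over the 9 arrays, with every probe centred on its own mean, the genes whose brightest probe followed that of Camk1d most closely were Zfp281 (root mean square distance 0.10 log2 units), Zfp618 (0.13) and Fbxw9 (0.14), where the Camk1d probe itself deviated from its mean by 0.50. For the brighter Camk2b probe, which deviated by only 0.20, the closest were 1500002F19Rik (0.063), Pdlim5 (0.067) and Pla2g4b (0.068). These are descriptions over 9 arrays of 3 genotypes, in which the low TG replicate 2 weighs on the Camk1d pattern.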
